A study of Mus musculus with 8 samples.

Results

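Immortalized mouse embryonic fibroblasts carrying an shRNA against Ring1a were compared with and without DS3201, an inhibitor of the H3K27 methyltransferases EZH1 and EZH2. The comparison used 4 of the 8 labelled libraries of the series, chosen by their column names: 2 from Ring1a shRNA cells grown with DS3201 and 2 from Ring1a shRNA cells without it. In both groups the cells were labelled as knocked out for Setdb1, Suv39h1, Suv39h2, Ehmt1, Ehmt2 and Ring1b. The Ring1a shRNA came from a lentivirus, followed by blasticidin selection. DS3201 was given at 1 uM for 7 days. The other 4 libraries, control shRNA cells of the same genotype without and with DS3201, share no library with this comparison and serve as its reference. Each group held 1 library of the columns starting with 20 and 1 of those starting with 28, called set 20 and set 28, and paired values below are given in that order. The labels name 1 immortalized cell line, and do not say whether the replicates were separate cultures, so the p-values reflect library-to-library spread alone, possibly of technical origin.

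Polycomb repressive complex 2 (PRC2) methylates histone H3 at lysine 27 through EZH1 or EZH2, and Polycomb repressive complex 1 (PRC1) ubiquitylates histone H2A through RING1A or RING1B. The marks are known for keeping developmental regulator genes silent in cells that do not use them, such as fibroblasts. Methylation of H3 at lysine 9, laid down by SETDB1, SUV39H1, SUV39H2, EHMT1 and EHMT2, is a main mark of heterochromatin. The genes of these enzymes are labelled as knocked out in these cells, and the mark itself was not measured here.

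Ring1, the gene for RING1A, stood at 4.51 and 1.41 CPM (counts scaled to library size) in the Ring1a shRNA cells and at 3.52 and 2.04 CPM with DS3201, below the 20.2 and 9.73 CPM of the control shRNA cells in the same sets. Its log2 fold change with DS3201 was 0.03 ± 0.30 (SE, n = 2 libraries a group, adjusted p = 0.984). Ezh2 RNA was 60.4 and 90.4 CPM without and 89.6 and 108 CPM with the inhibitor (0.42 ± 0.19, adjusted p = 0.280), and Ezh1 RNA was 23.5 and 15.6 against 25.9 and 15.6 CPM (0.07 ± 0.18, adjusted p = 0.909). DS3201 acts on the enzymes, so these RNA levels do not check the treatment. None of the 9 perturbed genes and inhibitor targets was called. RNA of genes labelled as knocked out was counted in the Ring1a shRNA cells: Ehmt2 at 208 and 199.6 CPM, Suv39h1 at 88.3 and 89.99, Ehmt1 at 38.02 and 49.8, Suv39h2 at 13.5 and 15.5, Setdb1 at 13.1 and 9.36, and Rnf2, the gene for RING1B, at 28.7 and 45.03 CPM. Counts per gene do not show whether a deleted part was read, so they do not check the knockouts. Total counts of the 4 libraries ran from 14782753 to 23688253, so that 3 counts correspond to 0.127 to 0.203 CPM. Intervals and floors below cover counting error only. Of the fibroblast markers, Col1a1 ranged from 3744 to 6954 CPM and Vim from 1888 to 2774 CPM in the 4 libraries, while Thy1 was at most 0.251 CPM. Summed over the fibroblast markers, the level was 27918 and 25655 CPM without and 16962 and 20263 CPM with DS3201. Of 15 tested markers 1 was called higher (6.67%, against 6.34% of all tested genes) and 2 lower (13.3%, against 0.875%). The first principal component over the 8 libraries (54.8% of the variance) separated libraries by DS3201 and the second (29.3%) by set. The control shRNA library with DS3201 of set 28 stood apart on the third (7.44%). It enters the shared fit and the comparison of the control cells.

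With DS3201, genes that were nearly silent in the Ring1a shRNA cells rose, and among well-expressed genes more fell than rose. Of 14393 tested genes, 913 rose (6.34%) and 126 fell (0.875%) at an adjusted p under 0.05. All 1039 had the same direction in both sets, which the test itself nearly requires with 2 libraries a group. The genes that rose were mostly silent or nearly so beforehand: their median level went from 0.0946 to 3.85 CPM, and 234 had 0 counts in both libraries without the inhibitor. The genes that fell were expressed at intermediate to high levels, with a median that went from 48.4 to 19.9 CPM. In bulk libraries a change in the share of cells that use a gene and a change of its RNA in every cell cannot be told apart.

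With genes at 0 counts set to a floor of 3 counts over the group, 895 of the 913 genes rose by more than 2-fold and 535 by more than 16-fold. The log2 fold changes of the 126 lower genes ran from -4.07 to -0.61 with a median of -1.30, and 84 fell by more than 2-fold. At 10 to 100 CPM without the inhibitor 42 of 7067 genes rose (0.594%) and 78 fell, and at 100 CPM or more 3 of 2149 rose (0.140%) and 31 fell. At 1 to 10 CPM 137 of 3092 rose (4.43%) and 16 fell. Below 1 CPM 731 of 2085 tested genes rose. Genes at this level can pass the low-count filter through the groups with the inhibitor alone, and falls near 0 cannot be seen, so this share is not comparable with those above, and 731 of the 913 genes that rose belong to it. The plot of levels without and with DS3201 shows both populations.

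**Figure D1:**
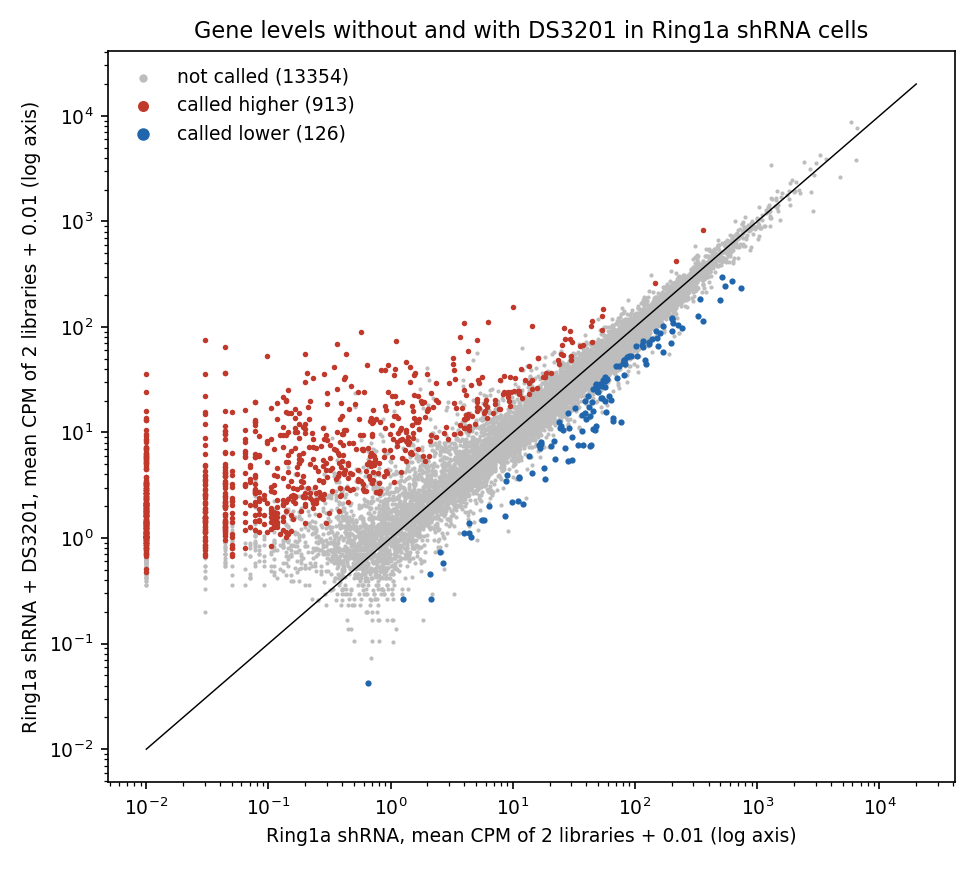
Mean CPM of the 2 Ring1a shRNA libraries without DS3201 (horizontal) against the mean of the 2 with it (vertical), each plus 0.01, on log axes, 1 point per tested gene. The 913 genes called higher (red) lie mostly left of 1 CPM on the horizontal axis, the 126 called lower (blue) mostly right of 1 CPM, and the black line marks equal levels.

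The counts rest on pairing the libraries by set and on each library. Without the set term 92 genes rose and 0 fell by edgeR, with 216 lower at an unadjusted p under 0.05, and DESeq2 with the set term called 1121 higher and 324 lower. In the fit without the set term 11 genes of the 2-cell embryo list below, 2 homeobox genes and 0 interferon-stimulated genes passed. Leaving out the Ring1a shRNA library of set 20 or set 28, or the DS3201 library of set 20 or set 28, gave 279, 592, 114 and 139 higher genes and 38, 27, 4 and 1 lower genes. This order of left-out libraries is used below. The lower count was 66 and 81 without the control shRNA library of set 20 or set 28, and 777 and 861 without its DS3201 counterparts.

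The highest fold changes belonged to genes at or next to 0 counts. Sod3, the extracellular superoxide dismutase (chr5, 52363804 to 52369738), had 0 counts in both Ring1a shRNA libraries and 51.6 and 19.8 CPM with DS3201, at least 472-fold higher (adjusted p = 0.000435). Nts, the precursor of the neuropeptide neurotensin (chr10, 102481756 to 102490418), went from 0.0406 and 0 CPM to 148 and 1.92 CPM. Over that 1 count the ratio was 2985 (95% counting interval 535 to 117950), and the set 20 library with DS3201 alone gives most of it. Limch1, a regulator of non-muscle myosin (chr5, 66745889 to 67057159), had 0 counts and then 7.35 and 24.9 CPM, at least 211-fold higher (adjusted p = 0.00117).

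The other genes of the 12 highest had varied known roles. Pcdh9, a protocadherin of neurons (chr14), had 0 counts and then 6.15 and 20.2 CPM, at least 172-fold higher. Ednra, the endothelin receptor of mesenchymal and vascular smooth muscle cells (chr8), had 0 counts and then 8.92 and 5.75 CPM, at least 96.7-fold higher. Both libraries with the inhibitor lay above both without it for each of the 12. Starting from 0 counts, Bend4 reached 5.15 and 12.3 CPM (at least 115-fold higher) and Jakmip2 8.16 and 11.2 CPM (at least 127.5-fold higher). Slc7a2, a transporter of cationic amino acids, reached 10.6 CPM in each library, and Tmem47, H2-Aa, Kctd12 and Cyfip2 complete the group shown in the plot of the 12 highest fold changes.

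**Figure D2:**
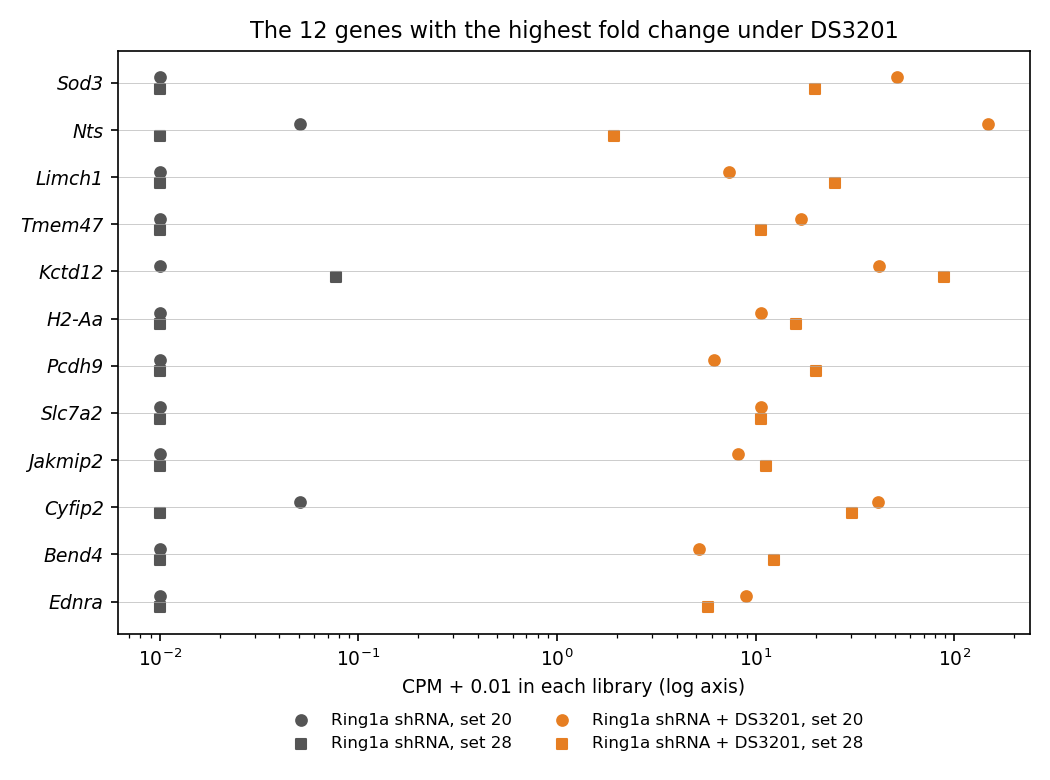
CPM plus 0.01 in each of the 4 libraries on a log axis for the 12 genes with the highest log2 fold change (grey, Ring1a shRNA; orange, Ring1a shRNA with DS3201; circles, set 20; squares, set 28). Points at 0.01 are libraries with 0 counts, and every orange point lies right of the grey points of its gene.

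A small number of well-expressed genes also rose. Brd2, a bromodomain protein that reads acetylated histones (chr17, 34112019 to 34122814), went from 329 and 389 to 569 and 1071 CPM (log2 fold change 1.12 ± 0.26, adjusted p = 0.0499). Tubb4b, a beta tubulin, went from 187 and 246 to 326 and 522 CPM (0.95 ± 0.20, adjusted p = 0.0386), and Glul, glutamine synthetase, from 56.1 and 53.1 to 136 and 160 CPM (1.44 ± 0.17, adjusted p = 0.00498). In all 3 genes both libraries with DS3201 lay above both without it. For Ccnd2, cyclin D2 of the G1 phase, the sets started apart, at 1.91 and 18.2 CPM, and reached 81.4 and 227 CPM (4.39 ± 0.45, adjusted p = 0.00326). Pmaip1, a BH3-only death gene, went from 21.8 and 66.8 to 73.5 and 153 CPM (1.48 ± 0.19, adjusted p = 0.00688). Ildr2 rose within each set but its groups overlapped, at 75.9 and 215 CPM without and 197 and 320 CPM with DS3201.

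Among transcription factors of development, homeobox genes outside the Hox clusters rose in 12 of 50 tested members (24%) and fell in none, and Sox, Pax, T-box, forkhead, GATA and bHLH factors rose in 13 of 60 (21.7%) and fell in none. The median log2 fold changes of the 2 lists were 0.59 and 0.34, against 0.0027 over all tested genes. Of members under 1 CPM without the inhibitor, 12 of 18 homeobox factors and 10 of 12 of the others rose, where 731 of all 2085 tested genes under 1 CPM did (35.1%). These shares include genes that passed the low-count filter only through groups with the inhibitor.

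Six2, a homeobox factor of nephron progenitors (chr17), went from 0.122 and 0.135 to 11.1 and 7.73 CPM (log2 fold change 6.16 ± 0.43, adjusted p = 0.000816). Irx3, an Iroquois factor of neural and limb patterning, went from 0.0406 and 0.337 to 13.3 and 10.7 CPM (6.18 ± 0.77), and En2, an engrailed factor of the midbrain and hindbrain, from 0 and 0.269 to 5.46 and 14.8 CPM (6.42 ± 0.70). Alx4, of limb and skull patterning, was at 0 counts and then at 5.59 and 4.79 CPM, at least 68.3-fold higher. Onecut1 (1.88 and 2.94 CPM with DS3201), Lmx1a (1.19 and 3.002 CPM) and Pou3f3 (0.44 and 2.75 CPM) were also at 0 counts without it and rose.

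In the second list Ebf2, of adipocyte and neuronal lineages, had 0 counts beforehand and 2.13 and 3.58 CPM with DS3201 (at least 37.5-fold higher), and Wt1, of the kidney and gonad, 2.32 and 1.15 CPM after 0 counts (at least 22.9-fold higher). Pax2, another kidney factor, rose from 0.0406 and 0.0673 to 2.20 and 6.07 CPM. Factors already expressed without the inhibitor also rose. Eomes, a T-box factor, went from 5.65 and 2.96 to 17.2 and 12.8 CPM (1.83 ± 0.31, adjusted p = 0.0169), and Gata2 from 11.3 and 9.15 to 24.3 and 25.5 CPM (1.29 ± 0.20, adjusted p = 0.0138).

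Hox genes, which pattern the body axis, rose in 2 of 27 tested members (7.41%), near the share of all genes. Hoxb9 went from 42.1 and 64.9 to 67.1 and 118.05 CPM (0.76 ± 0.15, adjusted p = 0.0315), with the groups apart, and Hoxd11, at 0 counts beforehand, reached 2.95 and 1.66 CPM (at least 30.4-fold higher, adjusted p = 0.0129). The Hox median was 0.45. Leaving out each library gave 6, 6, 1 and 2 of the homeobox factors, 2, 4, 0 and 0 of the second list and 0, 1, 0 and 0 of the Hox genes called higher. The Hox count was also 1 without either control shRNA library grown without DS3201. Without the control shRNA DS3201 library of set 20 or set 28, 3 homeobox factors and 4 of the second list fell.

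The promoter of Six2 is shown as that of a developmental factor that rose, and that of Zscan4d as that of a 2-cell embryo gene that rose. Each is the 250 bases before the transcription start in the RefSeq table of GRCm38.p6, on the minus strand, with CG dinucleotides in capitals. Six2 lies at chr17:85688255-85688504 and Zscan4d at chr7:11166149-11166398.
Six2: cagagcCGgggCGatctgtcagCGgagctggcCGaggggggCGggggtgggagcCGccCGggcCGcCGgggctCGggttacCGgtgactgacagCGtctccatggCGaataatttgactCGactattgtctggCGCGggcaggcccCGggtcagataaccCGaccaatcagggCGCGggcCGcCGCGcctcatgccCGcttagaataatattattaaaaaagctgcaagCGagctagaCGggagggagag
Zscan4d: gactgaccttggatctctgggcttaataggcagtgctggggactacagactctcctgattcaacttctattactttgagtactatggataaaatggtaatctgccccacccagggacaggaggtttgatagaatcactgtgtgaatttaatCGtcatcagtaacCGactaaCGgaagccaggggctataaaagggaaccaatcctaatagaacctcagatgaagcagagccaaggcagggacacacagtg

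The Six2 stretch holds 26 CG dinucleotides, and 9.59% of the 32851 stretches in the table hold at least as many. The Zscan4d stretch holds 3, and 71.0% hold at least as many. The median over the table is 6. No comparison over the called genes was made, since promoter sequences were matched for 75.1% of the genes that rose and 74.6% of those that fell, below the 80% set for such a check.

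Genes of the 2-cell embryo are on for a short window after fertilization and in rare stem cells. Of 26 tested members 22 rose (84.6%, against 6.34% of all tested genes) and none fell. All 26 were higher in both sets. Under 1 CPM without the inhibitor 18 of 22 rose (81.8%), against 35.1% of all genes at that level. Such genes can pass the low-count filter through the groups with the inhibitor alone, and their falls cannot be seen. The median log2 fold change was 6.40, or 5.39 where the floor replaced 0 counts, and the summed level of the list went from 59.4 and 40.1 to 637 and 474 CPM. Dux, the homeobox activator of the programme, went from 0 and 0.269 to 2.57 and 2.11 CPM (4.36 ± 1.01, adjusted p = 0.0471). Zfp352, a zinc finger gene of the same stage (chr4, 90218820 to 90225687), had 0 counts and then 4.77 and 12.1 CPM, at least 111-fold higher.

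Of the Zscan4 cluster on chr7, Zscan4c went from 7.39 and 0.606 to 146 and 69.8 CPM (5.07 ± 0.82, adjusted p = 0.0157). Zscan4d went from 0.325 and 0.0673 to 47.1 and 25.7 CPM (7.36 ± 0.54). The Usp17l deubiquitinase genes differed in where they started: Usp17la was already at 30.1 and 29.0 CPM and rose to 82.3 and 100 CPM (1.62 ± 0.20, adjusted p = 0.00656), whereas Usp17lb went from 0.244 and 0.202 to 33.5 and 32.3 CPM (7.14 ± 0.44). Pramef25, a member of a multicopy family on chr4, went from 0 and 0.0673 to 8.23 and 12.6 CPM. The 4 members that did not pass were Zfp750, Cml2, Obox3 and B020004J07Rik, with adjusted p from 0.0533 to 0.254, none above 1.21 CPM in any of the 4 libraries compared. Members of these families are near-identical copies, so the split of reads among them is uncertain. The count higher was 15, 18, 11 and 10 when each library was left out.

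Ligands, receptors and inhibitors of the patterning pathways rose in 15.2% to 19.7% of members, list by list. Beside them stand 6.34% of all tested genes, and 35.1% of those under 1 CPM without the inhibitor. Under 1 CPM, 5 of 13 Wnt (38.5%), 5 of 10 BMP, 8 of 14 axon guidance (57.1%) and 10 of 17 growth factor genes (58.8%) rose, so the Wnt share is near that of all genes at this level. In the Wnt pathway 7 of 44 tested members rose (15.9%) and 2 fell (median 0.58). Ror1, a receptor kinase for Wnt5a, went from 0.0406 and 0 to 2.83 and 3.45 CPM, and Fzd3, a Frizzled receptor, from 1.26 and 9.02 to 27.2 and 35.6 CPM (3.13 ± 0.67, adjusted p = 0.0387). The intracellular inhibitors Nkd1, Nkd2 and Axin2, themselves known as targets of the pathway, rose. Axin2, chosen after its values were seen, went from 2.07 and 1.01 to 22.4 and 5.11 CPM (2.95 ± 0.46, adjusted p = 0.0129). Activity of the pathway was not tested. Wif1, a secreted inhibitor, reached 1.82 and 0.894 CPM. The secreted modulators that fell were Dkk3, from 40.5 and 0.808 to 14.8 and 0.192 CPM (-1.59 ± 0.28), and the agonist Rspo2, from 21.2 and 13.1 to 9.36 and 6.13 CPM (-1.14 ± 0.22).

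In the BMP and TGF-beta list 7 of 46 rose (15.2%) and none fell (median 0.35). The ligand genes Bmp7 and Bmp5 had 0 counts beforehand. With the inhibitor Bmp7 stood at 3.26 CPM in each library (at least 42.9-fold higher, adjusted p = 0.00949) and Bmp5 at 2.83 and 2.43 CPM (at least 34.6-fold higher). The antagonist Nog rose from 0 counts to 1.00 and 3.13 CPM and the receptor Acvrl1 from 0 and 0.0673 to 1.19 and 0.958 CPM. Id1, Id2 and Id4, dominant-negative factors known as BMP targets, rose. Id1 went from 11.98 and 19.9 to 54.1 and 48.2 CPM (1.71 ± 0.34, adjusted p = 0.0307). The Id genes were chosen after their values were seen, and activity of the pathway was not tested.

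Of the axon guidance genes 13 of 67 rose (19.4%) and 1 fell (median 0.48). The Slit receptors Robo1 and Robo2 were next to 0 counts beforehand. Robo1 (chr16, 72027518 to 73047491) went from 0.0406 and 0.135 to 24.8 and 82.3 CPM (ratio 701, counting interval 240 to 3404), and Robo2 from 0.0406 and 0 to 12.3 and 32.2 CPM. Their ligand gene Slit3 went from 2.19 and 1.14 to 16.9 and 8.11 CPM (2.91 ± 0.32, adjusted p = 0.00414). The semaphorins Sema6d, Sema6a, Sema6b and Sema4d rose and Sema3d fell, from 72.7 and 17.4 to 27.1 and 5.17 CPM (-1.57 ± 0.17, adjusted p = 0.00349). Efnb2, an ephrin ligand that was expressed beforehand, went from 21.0 and 65.5 to 67.8 and 135 CPM (1.39 ± 0.23, adjusted p = 0.0156).

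Growth factor ligands and receptor kinases rose in 12 of 61 members (19.7%) and fell in 3 (median 0.17). Flt4, the receptor of lymphatic growth factors, reached 38.0 and 50.02 CPM from 0.731 and 0.538 CPM (6.08 ± 0.47), while its ligand gene Figf (vascular endothelial growth factor D) fell from 68.7 and 25.6 to 15.5 and 5.43 CPM (-2.20 ± 0.23, adjusted p = 0.00349). The PDGF receptor genes moved in opposite directions. Pdgfra went from 0.975 and 7.27 to 17.1 and 28.4 CPM (2.96 ± 0.57, adjusted p = 0.0271), and Pdgfrb from 177 and 220 to 68.25 and 71.9 CPM (-1.50 ± 0.21, adjusted p = 0.00975). Within each gene both libraries with the inhibitor lay on the same side of both without it. Ret, a receptor of glial-derived ligands, went from 0.894 and 0 to 23.2 and 10.2 CPM, and its co-receptor gene Gfra2 from 0 counts to 2.39 and 1.02 CPM. Tgfa, an EGF receptor ligand, went from 0.244 and 0.135 to 11.7 and 9.90 CPM. Leaving out each library, 1, 6, 1 and 0 of the Wnt, 2, 4, 0 and 0 of the BMP, 3, 10, 2 and 3 of the axon guidance and 5, 6, 3 and 3 of the growth factor genes rose, and 0, 0, 0 and 0 of the Wnt and 2, 2, 0 and 0 of the growth factor genes fell. The axon guidance count of 1 lower was 1, 1, 0 and 0, and 6 without either control shRNA DS3201 library, where 2 BMP genes also fell. The growth factor count of 3 lower was 11 and 12 without the control shRNA DS3201 library of set 20 or set 28. The Wnt count of 2 lower was 1 without either control shRNA library grown without DS3201.

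Imprinted genes, expressed from 1 parental allele, rose in 8 of 47 tested members (17.0%, against 6.34% of all tested genes) and fell in none (median 0.16). Of the members under 1 CPM without the inhibitor 4 of 11 rose (36.4%), near the 35.1% of all genes at that level. Peg3, a paternally expressed zinc finger gene (chr7, 6703892 to 6730462), went from 0.325 and 1.88 to 62.9 and 83.6 CPM (6.33 ± 0.47, adjusted p = 0.00108). Its neighbour Usp29 rose from 0 counts to 1.07 and 0.767 CPM. Igf2, a fetal growth factor, went from 2.52 and 1.41 to 45.5 and 26.1 CPM (4.18 ± 0.32), and the adjacent H19 from 0.122 and 0.0673 to 2.45 and 0.703 CPM. Grb10, an adaptor that restrains growth, went from 4.47 and 2.89 to 41.7 and 117 CPM (4.24 ± 0.93, adjusted p = 0.0421), Mest from 1.22 and 2.56 to 10.1 and 17.95 CPM, and Dio3, a thyroid hormone deiodinase, from 0 counts to 1.95 and 0.256 CPM. The counts do not show from which allele the RNA came. Of 22 tested germline and meiosis genes 4 rose, all 4 among the 12 under 1 CPM (33.3%, again near all genes at that level). One was Pgk2, the testis phosphoglycerate kinase, from 0.406 and 0.740 to 5.71 and 8.18 CPM. In the same order of left-out libraries, 3, 4, 3 and 2 imprinted and 1, 1, 0 and 0 germline genes rose. Without the control shRNA DS3201 library of set 20 the imprinted count was 5, and without that of set 28 the germline count was 2. Without either, 1 imprinted gene fell.

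In the list of MHC and antigen presentation genes 5 of 22 rose (22.7%, against 6.34% of all tested genes), all 5 among the 6 under 1 CPM, and none fell, while the list median was -0.11. The 3 class II genes H2-Aa, H2-Ab1 and H2-Eb1 are neighbours on chr17 (34263227 to 34316674) and present peptides on professional antigen-presenting cells. All had 0 counts without DS3201, and with it H2-Aa reached 10.6 and 15.8 CPM, H2-Ab1 2.39 and 1.66 CPM (at least 26.7-fold) and H2-Eb1 2.83 and 2.11 CPM (at least 32.5-fold). H2-Q6 and H2-Q7, class I genes of near-identical sequence, were the other two. Their count higher was 1, 3, 0 and 0 with each library left out, and 6 and 5 fell without the control shRNA DS3201 library of set 20 or set 28.

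Ion channel genes rose in 11 of 47 tested members (23.4%, against 6.34% of all tested genes) and fell in none (median 0.70). Under 1 CPM 9 of 20 rose (45%, against 35.1%). The L-type calcium channel Cacna1c went from 1.14 and 1.82 to 11.1 and 12.6 CPM (3.02 ± 0.44, adjusted p = 0.0108) and the T-type channel Cacna1g from 1.22 and 0.269 to 17.8 and 9.01 CPM (4.55 ± 0.69, adjusted p = 0.0122). The potassium channels Kcng1, Kcnk1 and Kcnj5 rose from 0 counts to between 0.879 and 2.11 CPM. Of 9 tested Slc7 transporters 3 rose (33.3%), among them Slc7a11, the cystine transporter, from 1.58 and 0.808 to 12.5 and 9.58 CPM (3.21 ± 0.37, adjusted p = 0.00487). Of 38 antioxidant genes Sod3 and Mgst1 rose (5.26%, below the 6.34% of all tested genes) and Gstm1 fell (2.63%, against 0.875%). Under 1 CPM 2 of 2 Slc7 and 1 of 3 antioxidant genes rose. Mgst1, a microsomal glutathione transferase, went from 1.46 and 2.83 to 25.6 and 21.5 CPM (3.51 ± 0.38), and Gstm1, a cytosolic one, from 79.6 and 30.02 to 43.2 and 19.5 CPM (-0.75 ± 0.17, adjusted p = 0.0462). With each library left out, 0, 7, 1 and 0 channel, 2, 3, 0 and 0 Slc7 and 2, 3, 1 and 2 antioxidant genes rose, and 0 antioxidant genes fell in all 4 cases. Without the control shRNA DS3201 library of set 20 or of set 28, 2 antioxidant and 2 channel genes fell.

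Some markers of other cell types rose. Under 1 CPM without the inhibitor, 7 of 14 muscle, 2 of 7 neuronal (28.6%), 2 of 6 endothelial (33.3%) and 1 of 6 blood markers (16.7%) did, where 35.1% of all genes at that level rose, so the last 3 lists are at or below that share. Of 20 tested skeletal muscle markers 7 rose (35.0%), among them sarcomere genes: Myl1, a myosin light chain at 0 counts beforehand, was at 8.10 and 2.68 CPM (at least 71.2-fold higher), and Myh3, the embryonic myosin heavy chain, went from 0 and 0.0673 to 2.32 and 4.15 CPM. Myh3, Myh1, Myh8 and Myh13 rose as neighbours on chr11. The master regulators Myod1 and Myog had at most 0.0639 CPM in any of the 4 libraries. Of 13 neuronal markers Uchl1 and Dcx rose. Dcx, a microtubule protein of migrating neurons, went from 0 and 0.0673 to 11.4 and 7.98 CPM, while Rbfox3, Nefl, Nefm and Nefh stayed at or under 0.639 CPM. Of 11 endothelial markers Flt4 and Tie1 rose and Cldn5 had 0 counts in all 8 libraries. Of 11 epithelial markers Esrp1 rose and Cdh3, P-cadherin, fell from 152 and 107 to 77.7 and 66.6 CPM (-0.82 ± 0.16), and neither was called when any 1 of the 4 libraries compared, or either control shRNA library grown without DS3201, was left out. Of 8 blood markers only Lyz2 was called, from 0.203 and 0.269 to 7.91 and 6.32 CPM, with Tyrobp and the beta-globin genes at 0. Summed over each list, muscle markers were at 54.9 and 40.5 CPM without and 74.3 and 78.5 CPM with the inhibitor, endothelial markers at 140 and 74.7 against 209 and 161 CPM, and blood markers at 19.21 and 7.27 against 22.4 and 15.1 CPM. Under the 4 left-out libraries, 2, 3, 0 and 2 muscle, 2, 2, 1 and 1 neuronal, 1, 1, 1 and 1 endothelial and 1, 1, 0 and 1 blood markers rose. Without either control shRNA DS3201 library the neuronal and endothelial counts were 3 each. The blood count was 2 without either control shRNA library grown without DS3201.

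Interferon-stimulated genes, which encode the antiviral effectors and signalling proteins switched on by interferon receptors, were the list with the largest share of lower members. Of 57 tested members 16 fell (28.1%, against 0.875% of all tested genes) and none rose. The fitted change was negative for 56, and 52 were lower in both sets, where 5059 of all 14393 tested genes were lower in both. The median log2 fold change was -1.31, at -0.74 in set 20 and -1.80 in set 28, and 55 members had a lower change in set 28 than in set 20. Summed over the list, the level went from 5592 to 3430 CPM in set 20 and from 4016 to 1318 CPM in set 28.

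Among the effectors, Ifit3, which restrains viral RNA translation (chr19, 34583119 to 34588982), fell from 110 and 43.1 to 22.04 and 3.19 CPM (-3.002 ± 0.38, adjusted p = 0.00653). Mx2, a dynamin-like GTPase, fell from 19.09 and 17.8 to 5.40 and 1.79 CPM (-2.57 ± 0.47, adjusted p = 0.0229) and Ifi44 from 56.4 and 39.7 to 19.4 and 3.83 CPM (-2.41 ± 0.50, adjusted p = 0.0347). For these 3 genes both libraries with DS3201 lay below both without it, as they did for 40 of the 57 members. Eif2ak2, the RNA-activated kinase PKR, fell from 142 and 89.9 to 87.7 and 41.3 CPM (-0.90 ± 0.17, adjusted p = 0.0257), and Samd9l from 192 and 146 to 80.9 and 35.7 CPM (-1.63 ± 0.21, adjusted p = 0.00653).

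The signalling genes fell with the effectors. Stat2, which carries the signal from the receptors to the nucleus, went from 56.7 and 65.0 to 25.9 and 18.1 CPM (-1.52 ± 0.31, adjusted p = 0.0319). Irf7, the amplifying transcription factor, went from 69.0 and 45.7 to 21.5 and 9.39 CPM (-2.03 ± 0.45, adjusted p = 0.0416). Ddx58, the RNA sensor RIG-I, went from 155 and 154 to 82.6 and 48.0 CPM (-1.31 ± 0.24, adjusted p = 0.0229), while the sensor gene Ifih1 (MDA5), at 197 and 151 against 137 and 42.2 CPM, did not pass (-1.16 ± 0.31, adjusted p = 0.0777). Isg15 did not pass either, at 108 and 72.2 against 72.4 and 13.7 CPM (-1.57 ± 0.65, adjusted p = 0.254). For Isg15 the gap between the libraries without and with DS3201 was wider in set 28 than in set 20. Cxcl10, a chemokine, differed in direction between the sets, at 167 and 88.5 CPM without and 259 and 33.0 CPM with the inhibitor (adjusted p = 0.742).

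**Figure D3:**
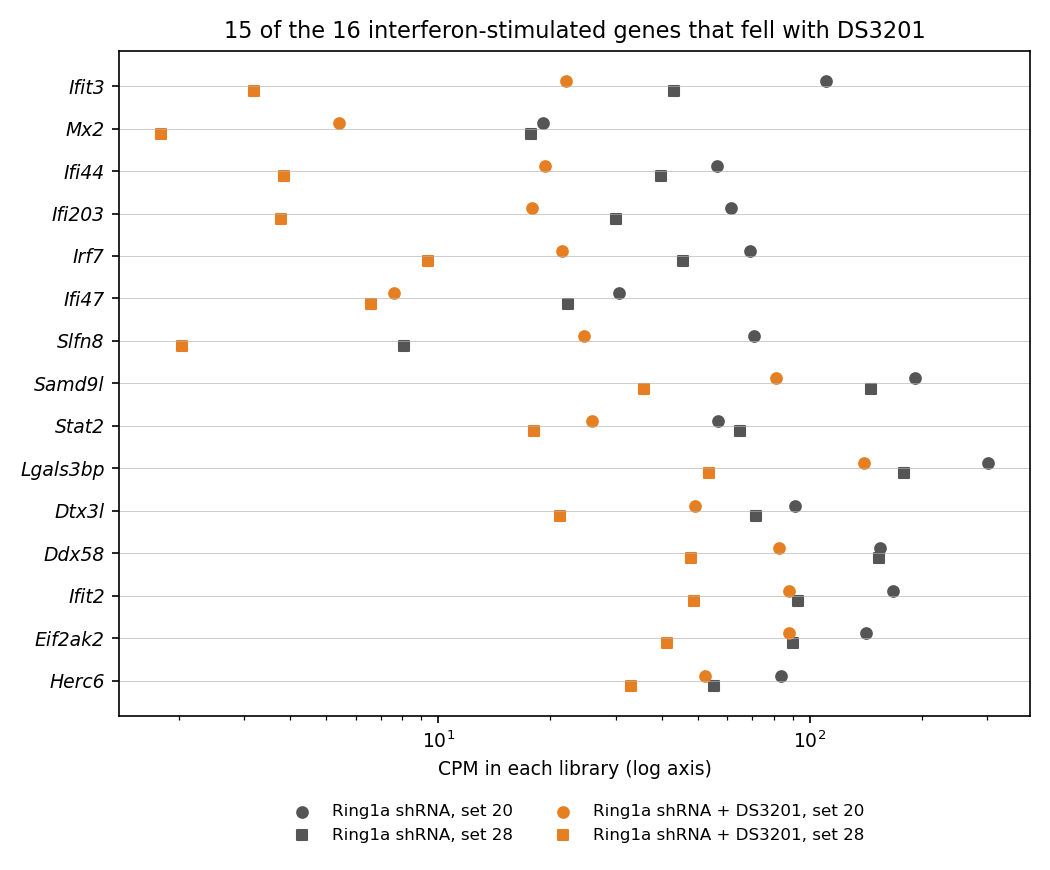
CPM in each of the 4 libraries on a log axis for 15 of the 16 interferon-stimulated genes that fell (grey, Ring1a shRNA; orange, Ring1a shRNA with DS3201; circles, set 20; squares, set 28). In each gene and set the orange point lies left of the grey point of the same shape, and the distance is larger for the squares in most genes.

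Apart from Ifnz, RNA of the interferons themselves was at or next to 0 counts. The table lists 21 interferon genes, of which 15 had 0 counts in the 4 libraries, and Ifnb1 had 8 and 1 counts without and 3 and 1 with DS3201. Ifnz had 25 and 29 counts without and 26 and 47 with it. Of the 12 lowest log2 fold changes named by rule, those outside this list were Clec2d, Phf11d, Ccl9, Ptn, Uba7, Pyhin1, Sorbs2 and Pcdhgc5. Clec2d had the lowest, from 2.84 and 1.41 to 0.314 and 0.192 CPM (-3.05 ± 0.67). Ptn went from 41.6 and 90.9 to 2.57 and 23.2 CPM (-2.70 ± 0.56). Uba7 acts in ISG15 conjugation, and Pyhin1 is a DNA-binding protein of the Ifi200 family. Pyhin1 fell from 65.9 and 9.49 to 14.4 and 0.767 CPM (-2.62 ± 0.35, adjusted p = 0.00848).

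The promoters of the lower interferon-stimulated genes were searched for the core of the interferon response element, written GAAA, any 2 bases and GAAA, on both strands (TTTC, any 2 bases and TTTC on the other), from 250 bases before to 50 bases after each start in the RefSeq table of GRCm38.p6. Of the 16 genes 14 had such a stretch, and 6 held the motif in at least 1 stretch. Of all 32851 stretches, from 27025 genes, 1131 held it (3.44%). The first count is per gene and the second per stretch, so they are not directly comparable. Members of the list that were not called were not compared. The 30 bases around the first match are shown for the 6, with the motif in capitals, to let the matched letters be compared between genes. The positions are Ifit3 chr19:34583363-34583392 on the plus strand, Ifi203 chr1:173942508-173942537 on the minus strand, Slfn8 chr11:83020839-83020868 on the minus strand, Stat2 chr10:128270266-128270295 on the plus strand, Ddx58 chr4:40239804-40239833 on the minus strand and Eif2ak2 chr17:78882535-78882564 on the minus strand.
Ifit3: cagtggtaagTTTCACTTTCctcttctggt
Ifi203: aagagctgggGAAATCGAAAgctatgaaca
Slfn8: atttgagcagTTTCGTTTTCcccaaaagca
Stat2: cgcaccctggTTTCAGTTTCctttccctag
Ddx58: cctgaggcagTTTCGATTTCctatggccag
Eif2ak2: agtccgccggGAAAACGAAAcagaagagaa

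A match is a description of the letters and not a measured binding site, and the 8 genes with a stretch and no match may hold other forms of the element or one outside it.

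The number of interferon-stimulated genes that fell depended on the libraries and the tool. It was 19, 3, 1 and 0 with each library left out in turn, 28 without either control shRNA DS3201 library, 0 without the set term and 38 with DESeq2. No member rose under any of these settings.

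Called genes of the fibroblast matrix moved in both directions, while their summed RNA was lower with DS3201 in both sets. Summed over the collagens, the level went from 27951 and 21551 to 14808 and 15279 CPM. For other matrix proteins it went from 12941 and 13979 to 10599 and 12156 CPM. Postn, periostin (chr3, 54359267 to 54391041), fell from 549 and 936 to 160 and 311 CPM (-1.69 ± 0.23, adjusted p = 0.00852), and Ogn, the proteoglycan osteoglycin, from 78.6 and 52.4 to 13.1 and 14.5 CPM (-2.18 ± 0.35, adjusted p = 0.0146). Of the collagen VI chains Col6a1 fell from 951 and 140 to 432 and 54.2 CPM (-1.26 ± 0.22) and Col6a3 from 478 and 179 to 194 and 59.98 CPM (-1.44 ± 0.21), whereas Col6a4 rose from 0.0406 and 0 to 3.96 and 1.72 CPM. Col6a1 and Col6a3 differ between the sets by more than they changed, so the groups overlap although both sets fell. The fibrillar collagens did not pass: Col1a1 was 6954 and 6013 CPM without and 3744 and 3905 CPM with the inhibitor, and Col3a1 3680 and 2024 against 1421 and 1082 CPM.

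Matrix genes that rose were low or off beforehand. Fbln1, fibulin-1, went from 1.18 and 0.471 to 38.7 and 38.8 CPM (5.49 ± 0.38, adjusted p = 0.000816), Dcn, decorin, from 0.0406 and 0.404 to 9.67 and 7.67 CPM (5.51 ± 0.89, adjusted p = 0.0146), and Lama4, a laminin chain, from 0 and 0.337 to 24.7 and 5.69 CPM. In all, 4 of 40 collagens rose (10%) and 2 fell (5%). Of 55 other matrix proteins 7 rose (12.7%) and 2 fell (3.64%). The list medians were 0.02 and 0.03, and of all tested genes 6.34% rose and 0.875% fell. Under 1 CPM without the inhibitor 3 of 14 collagens (21.4%) and 7 of 17 other matrix proteins (41.2%) rose, against 35.1% of all genes. With DESeq2 5 collagens rose and 9 fell, and 7 other matrix genes rose and 7 fell. Adamts1, a matrix protease, fell from 479 and 756 to 158 and 391 CPM (-1.27 ± 0.22), Sepp1, the plasma selenoprotein, from 707 and 283 to 253 and 111 CPM (-1.42 ± 0.21) and Lpl, lipoprotein lipase, from 518 and 508 to 292 and 305 CPM (-0.78 ± 0.18). Of 31 contractile genes 3 fell (9.68%) and none rose. Cnn2, a calponin, went from 436 and 242 to 227 and 143 CPM (-0.85 ± 0.15, adjusted p = 0.02003). Mylk, the myosin light chain kinase, and Ldb3 also fell. When each library was left out, 1, 4, 1 and 1 collagens and 1, 7, 1 and 1 other matrix genes rose, and 0, 1, 0 and 0 collagens, 0, 2, 0 and 0 other matrix and 0, 0, 0 and 0 contractile genes fell. Without the control shRNA DS3201 library of set 20 or set 28, 10 and 10 collagens and 6 and 8 other matrix genes fell. Without either control shRNA library grown without DS3201, 2 contractile genes fell, and without its DS3201 counterparts of set 20 or set 28, 3 and 2 contractile genes rose.

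Polycomb genes and genes of housekeeping processes were called at a share near or below that of all genes (6.34% higher), or not at all. Of 23 tested PRC1 subunit genes Phc1, a polyhomeotic subunit, rose from 28.1 and 32.2 to 41.1 and 55.0 CPM (0.66 ± 0.15, adjusted p = 0.0463), and of 12 PRC2 genes none was called. Of 27 DNA methylation and silencing genes the de novo methyltransferase Dnmt3b rose from 5.69 and 4.17 to 13.7 and 10.48 CPM (1.30 ± 0.24, adjusted p = 0.0236) and Tet1, which oxidizes methylcytosine, from 0.487 and 0.673 to 10.4 and 3.51 CPM (3.46 ± 0.54, adjusted p = 0.0136). Ccnd2 was the only 1 of 54 DNA replication and mitosis genes called, Pmaip1 and Perp were the called 2 of 31 CDK inhibitors and p53 targets, and none of 34 sterol and fatty acid synthesis genes or 58 ribosomal protein genes was called. The medians of these last 4 lists were 0.09, 0.04, -0.24 and 0.19. Phc1 lost its call without any 1 of the 4 libraries compared and without either control shRNA library grown without DS3201, and 5 PRC1 genes rose without the control shRNA DS3201 library of set 20 or set 28. With each of the 4 libraries left out, 0, 1, 0 and 0 DNA methylation and 0, 2, 0 and 1 CDK inhibitor and p53 target genes rose. The DNA methylation count was 1 without the control shRNA library of set 20 grown without DS3201. Of the DNA replication and mitosis genes 6 rose without either control shRNA DS3201 library.

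**Figure D4:**
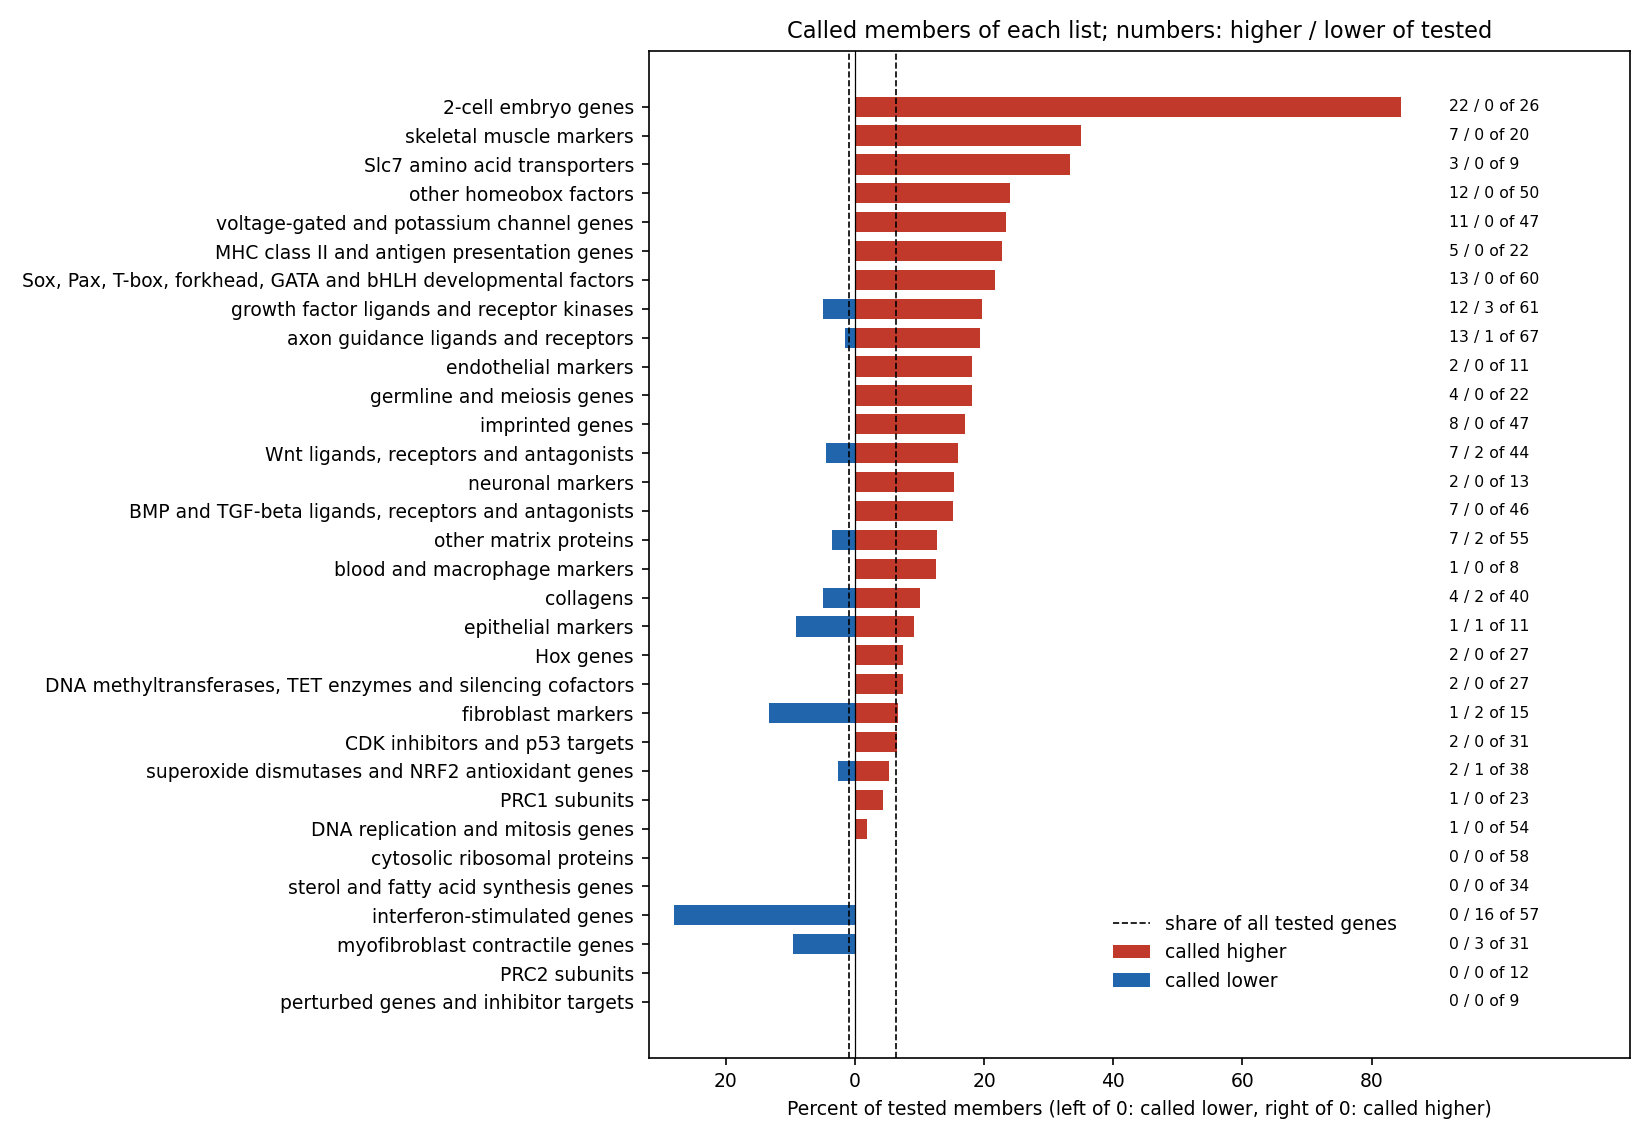
Percent of the tested members of each gene list called higher (red, right of 0) or lower (blue, left of 0) with DS3201 in Ring1a shRNA cells, with the counts at the right. Dashed lines mark the shares of all tested genes, 6.34% higher and 0.875% lower, and the 2-cell embryo and interferon-stimulated genes have the longest bars to the right and left.

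The genes that rose were spread over all chromosomes, and some were neighbours. On the X chromosome 62 of 526 tested genes rose (11.8%), while on the autosomes the share ran from 3.69% on chromosome 3 to 8.75% on chromosome 14. The longest run of tested neighbours that all rose was the Pramef cluster on chr4 (143511343 to 144408467), with 11 genes, followed by 6 Zscan4 genes on chr7 (10794241 to 11402318) and 6 genes around Duxbl1 and Plac9a on chr14 (25888403 to 26269434). These hold near-identical copies. Runs of distinct genes included Ms4a4b, Ms4a4d, Ms4a6d and Ms4a2, of a family of membrane proteins on chr19, and Robo1, Robo2 and Rbm11 on chr16. No run of 3 or more neighbours fell, but with 0.875% of all tested genes lower such a run was unlikely from the start. How many runs these shares alone would give was not tested.

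Control shRNA cells, which keep higher Ring1 levels, were tested for the same treatment in libraries of their own. There 982 genes rose (6.82%) and 108 fell (0.75%). Of the 913 genes that rose in the Ring1a shRNA cells, 756 also rose in the control cells (82.8% of 913 and 77.0% of 982), and 912 had a positive log2 fold change there. Of the 126 that fell, 47 also fell (37.3% of 126 and 43.5% of 108), and all 126 had a negative log2 fold change. Across the 14393 genes, which are not independent replicates, the log2 fold changes of the 2 comparisons correlated with Pearson's r = 0.935, as a description. The 2 comparisons share the sets and the fitted model.

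No gene passed in the test of the difference between the 2 responses, by edgeR or by DESeq2, and 132 genes had an unadjusted p under 0.05 (smallest adjusted p = 0.9899). The 4 genes with the smallest p were Ogfrl1, Cp, Usp17ld and Vmn2r3. Ogfrl1 went from 0.650 and 1.14 to 14.8 and 17.8 CPM in the Ring1a shRNA cells, and from 0 counts to 10.9 and 19.17 CPM in the control cells. Cp, the ferroxidase ceruloplasmin, went from 18.7 and 8.21 to 53.9 and 31.2 CPM in the Ring1a shRNA cells and from 10.8 and 4.09 to 72.7 and 49.9 CPM in the control cells. For both genes the starting level was lower in the control cells, and so it was for Usp17ld, at 0.366 and 0.404 CPM against 0.0475 and 0.0671 CPM. Vmn2r3 differed: it went from 0.0406 and 0 to 0.879 and 0.830 CPM in the Ring1a shRNA cells, and from 0.333 and 0.0671 to 0.170 and 0.0883 CPM in the control cells (log2 fold changes 4.88 and -0.62). Among the settings tried, genes passed in this test only when the control shRNA DS3201 library of set 20 was left out. That fit leaves the set 28 library, which stood apart, as the only control library with DS3201.

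Interferon-stimulated genes were lower with DS3201 in control cells too, with a smaller median of -0.63 (-0.13 in set 20 and -1.38 in set 28). There Ifi47 fell and Slfn5 rose. Paired by set, 34 of the 57 members were lower in both sets, against 52 in the Ring1a shRNA cells. A negative fitted change was found for 49 against 56. Both libraries with DS3201 lay below both without it in 4 members against 40, a count that ignores the pairing by set. The fitted change was lower in the Ring1a shRNA cells for 55 of the 57. For the difference 8 had an unadjusted p under 0.05 by edgeR, as did 132 of all 14393 tested genes. The median difference was -0.79 for the list and -0.036 over all tested genes. Members of the list are not independent replicates. Ifit3 in control cells was 148 and 38.2 CPM without and 68.3 and 9.80 CPM with the inhibitor. The difference between the responses was -1.53 ± 0.50 in log2 (adjusted p = 0.9899 by edgeR's quasi-likelihood test), and it did not pass for any member. The 2-cell embryo genes rose in 22 members in either background, with a control median of 6.76.

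**Figure D5:**
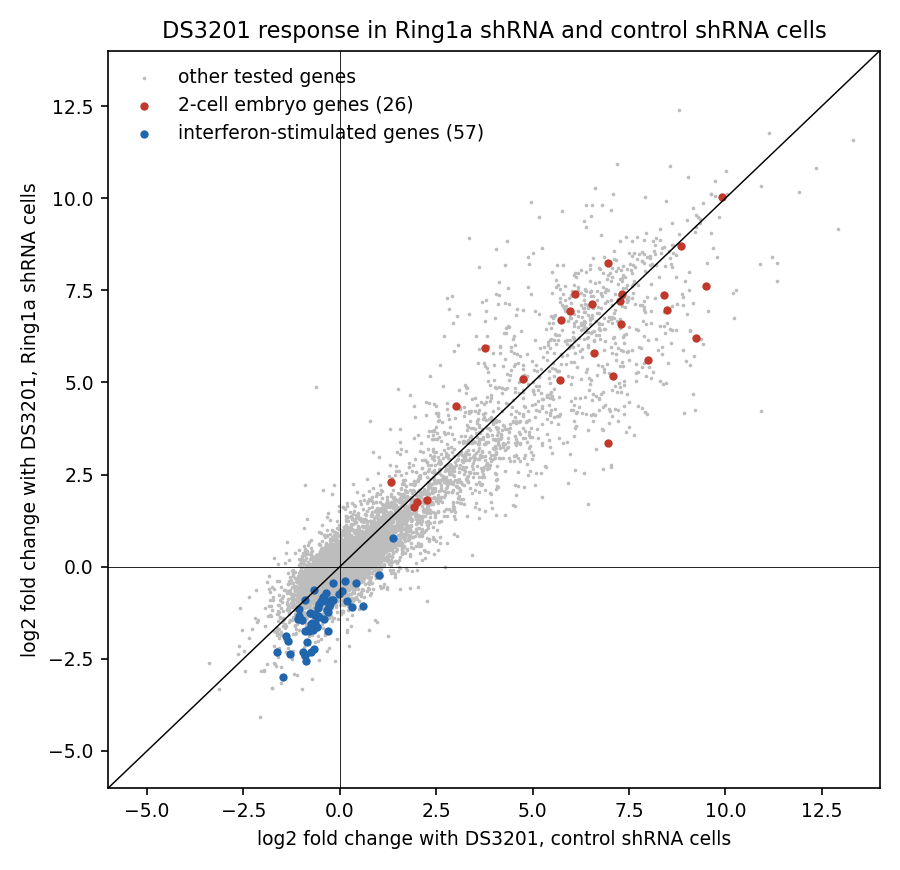
Log2 fold change with DS3201 in control shRNA cells (horizontal) against that in Ring1a shRNA cells (vertical) for 14393 tested genes, with the 26 2-cell embryo genes in red, the 57 interferon-stimulated genes in blue and the line of equal change in black. Values of genes with 0 counts in a group depend on the fit's prior count, and 55 of the 57 blue points lie below the line.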

How the data were processed

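Poly(A) RNA was sequenced, and the authors deposited raw read counts without normalization, one row for each gene symbol or repeat subfamily. Per the submitters' processing notes, Trim Galore, TopHat2 and mm10 were used; the counting tool, how it treated reads with more than 1 alignment, its strand setting and its annotation were not given in the sources used here. That table holds 24062 genes and 1153 repeat subfamilies in 16 columns of libraries, of which 8 could not be tied to any label and were left out. With the strand setting unknown, a gene and its antisense partner cannot be told apart.

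The fit used edgeR 4.0.16 in R 4.3.3 on all 8 labelled libraries, which share 1 estimate of spread. filterByExpr (minimum count 10) kept 14393 genes and 894 repeat subfamilies, and CPM values use TMM scaling. A robust quasi-likelihood model with terms for group and set (3 residual degrees of freedom) was tested by two-sided F tests with Benjamini-Hochberg adjustment over all 15287 entries, threshold 0.05. "Rose", "fell" and "called" refer to it. Standard errors are not given where a group had 0 counts. Such genes are given as at least N-fold higher, from a floor of 3 counts over that group, and ratios over 1 to 3 counts have a 95% exact binomial interval.

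The set, the number that starts a column name, was the replicate block by the rule of the comparison. The labels give each replicate its own batch without tying replicates to column numbers. Differences of set 20 from set 28 correlated between groups across genes with r from 0.563 to 0.902 (0.617 between the groups compared). Alternatives were no block, DESeq2 1.42.0, RLE scaling, other filters, gene rows only, no robust option, only the 4 libraries, and each library left out. The fit was tested on simulated data, with changes well under 16-fold set only in entries averaging above 1 CPM. That simulation does not cover the 535 of 913 genes that rose by more than 16-fold.

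Members and gene lists were chosen with earlier results of these data known, so list counts are descriptions beside all genes. Genes were named by rule: perturbed genes, the 12 highest and 12 lowest log2 fold changes and the 6 most abundant called genes per direction (same sign in both sets, at least 1 CPM in the higher group, no predicted or antisense models), 4 called members at most of each list in each direction, and the 4 smallest p in the difference test. A further 54 genes with values in the text, further list members such as Six2, Dux and Stat2 and those that did not pass such as Isg15, fall outside this rule and were chosen after their values were seen. Some items are not reported here. Positions and promoters come from RefSeq tables of GRCm38.p6 (14319 of 14393 genes matched).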

Additional observations from a re-analysis of the deposited data

Results flagged for a closer look

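Vim, the intermediate filament gene of fibroblasts, was higher with DS3201 in both sets of the Ring1a shRNA cells (log2 differences 0.03 and 0.29) and lower in both sets of the control shRNA cells (-0.27 and -0.0092). The fitted difference between the responses was 0.30 ± 0.24 in log2 and did not pass (adjusted p = 0.9899 by edgeR's quasi-likelihood test), and Vim was called in neither comparison.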

How the results depend on the processing

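For DS3201 in Ring1a shRNA cells, 913 genes rose and 126 fell with the replicate block. The count higher was 92 with no replicate block and 602 with a minimum count of 30. The count lower was 0 with no replicate block, 324 with DESeq2 and 353 with only the 4 libraries. Leaving out 1 library gave 114 to 1190 higher and 1 to 861 lower. In control shRNA cells (982 and 108) no replicate block gave 109 and 0. There the count lower was 422 with DESeq2, 214 without a filter and 71 with the stricter filter, and leaving out 1 library gave 164 to 2341 higher and 2 to 3021 lower. The difference between responses (0 and 0) gave 0 to 1270 higher and 0 to 626 lower with 1 library left out. A group left with 1 library is assumed to vary like the others. The causes were not tested.

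Of the 161 called genes chosen by the naming rule or added outside it, none turned direction in any of these settings. They were selected as called, and every called gene had the same direction in both sets, so a turn was unlikely from the start. The call was kept by 25 with no replicate block, 156 with DESeq2, 126 with only the 4 libraries and 30 to 147 with 1 library left out. With the stricter filter 127 were tested and 116 kept the call. Direction turned in 5 genes that were not called. Ring1 was -0.10 with no replicate block, -0.0014 without a filter and -0.24 to 0.37 with 1 library left out. Cxcl10 was 0.19 with no replicate block and -1.20 to 0.43 with 1 library left out. Under the same omissions Ehmt2 was -0.34 to 0.092, Rnf2 -0.10 to 0.43 and Suv39h2 -0.017 to 0.19. At 3 counts per 0.127 to 0.203 CPM, falls of genes near 0 were not detectable.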
